A study of Mus musculus with 6 samples.

Results

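The 10 genes described here encode transcription factors of the heart: Gata4, Gata6, Nkx2-5, Tbx5, Tbx20, Hand1, Hand2, Mef2a, Mef2c and Mef2d. They were chosen by name, as known regulators of heart muscle, with earlier results of these data known. Each matched 1 of the 54532 genes in the deposited table. Their levels were measured by RNA sequencing of infarcted hearts from wild-type (WT) mice and from Crlf2-/- mice, which lack the receptor for thymic stromal lymphopoietin (TSLP), an epithelial cytokine that acts on dendritic cells and T cells. Both groups were C57BL/6 in the labels (C57BL/6J in the study's methods), both underwent ligation of the left anterior descending coronary artery to induce myocardial infarction (MI), and both were sampled on day 7 post-MI, with 3 libraries per genotype. The study describes its purchased mice as males; the Crlf2-/- mice were made by another company on the same background, with no sex or age given for them, so genotype and source of the animals cannot be told apart. Tissue came from the infarct and the region around it, from 3 mice per genotype by the study's account. The knockout was in the whole animal, and no sham or unoperated library was among the samples analysed here. The tissue label and the study's methods say heart, whereas the extraction protocol in the labels speaks of retina; all 6 libraries held abundant cardiomyocyte transcripts (summed levels below).

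These factors form the regulatory core of the heart muscle cell. GATA4 and GATA6 are zinc finger proteins that bind GATA sites, NKX2-5 is a homeodomain protein, TBX5 and TBX20 are T-box proteins, HAND1 and HAND2 are basic helix-loop-helix proteins, and MEF2A, MEF2C and MEF2D are MADS-box proteins. They bind together at enhancers of sarcomere, ion channel and natriuretic peptide genes, and they direct heart formation in the embryo. Several are also made by other cells of the heart: GATA6 and TBX20 by endothelial and mesenchymal cells, HAND2 by fibroblasts, and the MEF2 proteins by many cell types, macrophages included.

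Depth was even, with 18508646 to 19682428 fragments assigned to genes in each library. Levels are given as FPKM, in which fragments are divided by exon length and by the depth of the library, scaled between libraries. All 6 libraries expressed cardiomyocyte, fibroblast, endothelial and macrophage markers. Crlf2, the targeted gene, had 917, 813 and 707 fragments in WT libraries and 437, 651 and 667 in Crlf2-/- libraries. Its transcripts were therefore still found in every Crlf2-/- library, at lower levels (log2 fold change -0.52 ± 0.17 SE, adjusted p = 0.521 by limma). Which part of the gene was deleted is not given in the sources used here.

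Crlf2-/- library 2 stood apart from the others. Its 6 skeletal muscle markers summed to 572.9 FPKM, against 18.3 to 91.2 in the other libraries. Acta1 was the highest of the 6 in every library, at 412.3 FPKM there and at 15.66 to 87.07 FPKM elsewhere. Myh1 and Myh2 were at 25.41 and 16.18 FPKM there, and at no more than 0.03502 and 0.01282 FPKM elsewhere. Myh4, a fast skeletal muscle myosin, was at 10.7 FPKM there and at 0 in the other 5 libraries. Of the 4 atrial markers, Sln and Myl4 were also highest there, at 4.96 and 6.94 FPKM, against at most 0.0675 and 0.681 elsewhere, whereas Myl7 was at 0.0724 FPKM there and at up to 0.5375 elsewhere, and Bmp10 was at 0 there. The part of this muscle RNA in the values below was not tested, and the main counts are given with and without this library.

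None of the cardiac transcription factors passed the test between genotypes. Of the 10, 9 had enough fragments to be tested, and limma called 0 of them (adjusted p up to 0.05 and a log2 fold change of 0.5 or more in either direction). Among all 15520 genes tested the share called was 0.0129%, which is 2 genes, Wdfy1 (log2 fold change 2.04) and Ighg2b (-3.42), both named after their values were seen. The study tested counts with DESeq2 at the same thresholds and reported far more genes. The counts given here therefore belong to the test used here. At an unadjusted p under 0.05 the count was 0 of 9 members, against 6.58% of all genes. In all 9 the WT and Crlf2-/- libraries overlapped, and over all genes the groups did not overlap in 11.7%. With 9 members, a count of 0 is close to both of these shares. Limma's voom on the fragments also called 0 members. The log2 fold changes, Crlf2-/- minus WT, ran from -0.18 to 0.25, with 5 positive and 4 negative. Their median was 0.01, beside a median of -0.0042 for all genes. Without Crlf2-/- library 2, the median was 0.06 and the count called was again 0. The labels do not tie each library to a mouse, and the p-values measure the spread between these libraries. In bulk tissue, fewer cells of a type and less RNA per cell cannot be told apart.

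**Figure D1:**
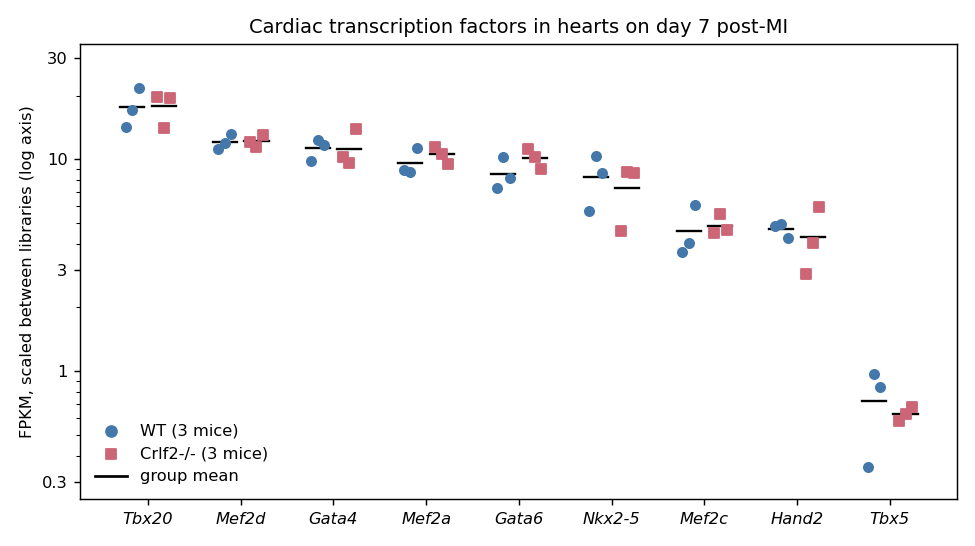
Level of the 9 detected cardiac transcription factors in each library, in FPKM scaled between libraries on a log axis, with circles for the 3 WT libraries, squares for the 3 Crlf2-/- libraries and black lines for group means. Tbx20 had the highest mean at 17.7 FPKM and Tbx5 the lowest at 0.675 FPKM, and the circles and squares overlap for every gene. Hand1 had 0 fragments and is not drawn.

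The GATA factors were close to each other in level. Gata4 (ENSMUSG00000021944, minus strand of chromosome 14, 63198922 to 63271692, mm10 as in the submitters' processing notes) activates natriuretic peptide and sarcomere genes and takes part in hypertrophic growth. It was at 9.85, 12.3 and 11.7 FPKM in WT libraries and at 10.3, 9.57 and 13.9 FPKM in Crlf2-/- libraries. The highest and the lowest value both belonged to Crlf2-/- libraries, so the groups overlapped over their whole range. The means were 11.3 ± 1.29 FPKM in WT and 11.2 ± 2.32 FPKM in Crlf2-/- hearts (SD, n = 3 each), a log2 fold change of -0.02 ± 0.16 (SE), with a 95% interval of -0.39 to 0.35 and an adjusted p of 0.996 by limma. Gata6 (ENSMUSG00000005836, plus strand of chromosome 18, 11052508 to 11085635) shares many of these sites with GATA4 and is also found in endothelial, smooth muscle and epicardial cells.

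In WT libraries Gata6 was at 7.35, 10.2 and 8.15 FPKM, and in Crlf2-/- libraries at 11.2, 10.3 and 9.02 FPKM. Of the 6 values, the 2 lowest were WT and the highest was Crlf2-/-, but WT library 2 lay within the Crlf2-/- range. Its log2 fold change of 0.25 ± 0.14 (SE) had the largest absolute value among the members and an adjusted p of 0.867 by limma, with a 95% interval of -0.08 to 0.58. In the GENCODE annotation, Gata6 shares 93 exonic bases with 1010001N08Rik on the opposite strand. That transcript had 25 to 50 fragments per library, against 940 or more for Gata6. Gata4 made up 57.0% ± 2.18 of the summed FPKM of both genes in WT libraries and 52.3% ± 7.26 in Crlf2-/- libraries. By library this share was 57.3%, 54.7% and 59.0% in WT and 47.9%, 48.3% and 60.6% in Crlf2-/- hearts, so Crlf2-/- library 3 lay above all WT libraries and the other Crlf2-/- libraries below them. An exact permutation test, two-sided, gave p = 0.4, where 0.1 is the smallest p that 3 against 3 libraries allow.

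Nkx2-5 (ENSMUSG00000015579, minus strand of chromosome 17, 26838664 to 26841565) is the homeobox gene that marks the cardiac lineage from early development and stays on in adult cardiomyocytes. It was at 5.68, 10.3 and 8.65 FPKM in WT libraries and at 4.60, 8.68 and 8.61 FPKM in Crlf2-/- libraries. The first library of each group was the low one, and the remaining 4 lay between 8.61 and 10.3 FPKM. Nkx2-5 had a log2 fold change of -0.18 ± 0.29 (SE), adjusted p = 0.995 by limma, with a 95% interval of -0.86 to 0.49. Without Crlf2-/- library 1 the log2 fold change was 0.11, in the opposite direction. The interval of -0.86 to 0.49 includes log2 fold changes past the threshold of 0.5 downwards.

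The T-box pair was unequal. Tbx20 (ENSMUSG00000031965, minus strand of chromosome 9, 24718138 to 24774303) maintains adult cardiomyocyte function and also acts in valve and endothelial cells. It was at 14.2, 17.2 and 21.6 FPKM in WT libraries and at 19.7, 14.0 and 19.5 FPKM in Crlf2-/- libraries. Both groups held a library near 14 FPKM and a library near or above 19.5 FPKM. Tbx20 had a log2 fold change of 0.01 ± 0.19 (SE), adjusted p = 0.996 by limma, with a 95% interval of -0.42 to 0.44.

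Tbx5 (ENSMUSG00000018263, plus strand of chromosome 5, 119832668 to 119885219) controls conduction and calcium handling genes and is strongest in the atria. It had few fragments, 38, 99 and 86 in WT and 60, 69 and 71 in Crlf2-/- libraries, which is 0.355, 0.969 and 0.840 FPKM and 0.581, 0.630 and 0.676 FPKM. The Crlf2-/- libraries all lay inside the WT range, and WT library 1 was the lowest of the 6. For Tbx5 it was -0.08 ± 0.32 (SE), adjusted p = 0.996 by limma, and its 95% interval of -0.83 to 0.66 was the widest of the members. Tbx5 made up 3.84% ± 1.45 of the summed FPKM of Tbx5 and Tbx20 in WT and 3.50% ± 0.728 in Crlf2-/- libraries (exact permutation test, p = 0.8).

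The HAND genes differed in whether they were detected at all. Hand1 (ENSMUSG00000037335, minus strand of chromosome 11, 57828705 to 57832818), which acts in the embryonic left ventricle and in the placenta, had 0 fragments in each of the 6 libraries. A count of 0 allows up to 3 fragments, or 0.0641 to 0.0687 FPKM depending on the library, and this limit covers counting error only. Hand2 (ENSMUSG00000038193, plus strand of chromosome 8, 57320983 to 57324633), which acts in the embryonic right ventricle and is also made in cardiac fibroblasts and sympathetic neurons, was found in all libraries. It was at 4.85, 4.94 and 4.25 FPKM in WT libraries and at 2.87, 4.03 and 5.98 FPKM in Crlf2-/- libraries.

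The WT values of Hand2 lay within 1 FPKM of each other, and the Crlf2-/- values lay below, below and above them. The log2 fold change was -0.18 ± 0.24 (SE), adjusted p = 0.993 by limma, with a 95% interval of -0.72 to 0.36. Leaving out 1 library moved it between -0.45 (without Crlf2-/- library 3, unadjusted p = 0.0405, adjusted p = 0.678 by limma) and 0.07 (without Crlf2-/- library 1). Hand2 shares 461 exonic bases with AV026068, a transcript on the opposite strand with 74 to 104 fragments per library. Whether fragments were counted by strand is not stated, so fragments from the shared bases cannot be told apart.

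Mef2d and Mef2a varied least between libraries of all the members. Mef2d (ENSMUSG00000001419, plus strand of chromosome 3, 88142372 to 88172086), whose protein takes part in stress-induced remodelling of the adult heart, was at 11.2, 11.9 and 13.2 FPKM in WT libraries and at 12.02, 11.5 and 13.1 FPKM in Crlf2-/- libraries. All 6 values lay within a log2 range of 0.23, the narrowest of the 9. Its log2 fold change was 0.01 ± 0.11 (SE), adjusted p = 0.996 by limma, with a 95% interval of -0.23 to 0.26. Mef2d shares 531 exonic bases with the antisense gene 1700113A16Rik, which had 1 to 20 fragments per library against 1536 or more for Mef2d.

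Mef2a (ENSMUSG00000030557, minus strand of chromosome 7, 67231163 to 67372858), whose protein serves mitochondrial and cytoarchitectural genes of the postnatal heart, was at 8.89, 8.73 and 11.4 FPKM in WT libraries and at 11.4, 10.6 and 9.55 FPKM in Crlf2-/- libraries. WT library 3 and Crlf2-/- library 1 were the highest and could not be separated at this precision. Between genotypes the log2 fold change was 0.13 ± 0.13 (SE), adjusted p = 0.979 by limma, with a 95% interval of -0.17 to 0.44. Mef2a overlaps Lysmd4 on the opposite strand by 302 exonic bases, and Lysmd4 had 248 to 374 fragments per library.

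Mef2c (ENSMUSG00000005583, plus strand of chromosome 13, 83504034 to 83667080), which the heart field needs early and which macrophages and endothelial cells also express, was at 3.66, 4.05 and 6.10 FPKM in WT libraries and at 4.49, 5.50 and 4.63 FPKM in Crlf2-/- libraries. The lowest values and the highest value were WT. The log2 fold change was 0.11 ± 0.19 (SE), adjusted p = 0.996 by limma, with a 95% interval of -0.34 to 0.55.

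**Figure D2:**
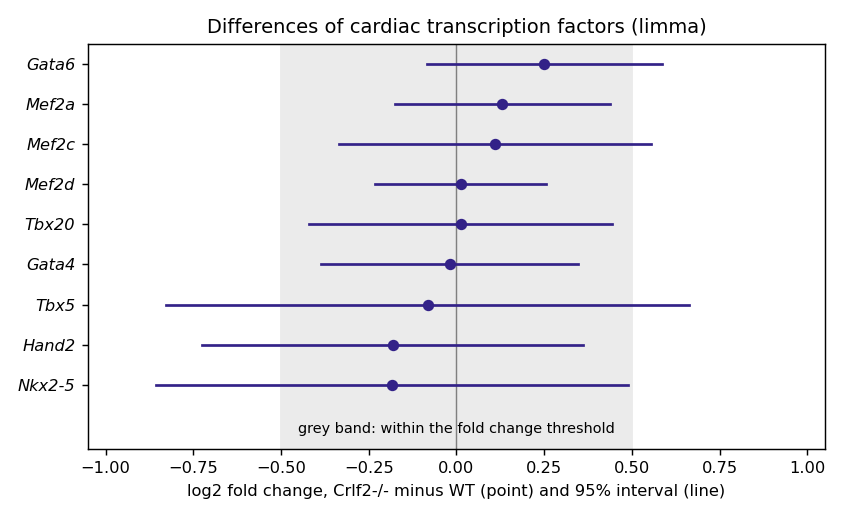
Log2 fold change, Crlf2-/- minus WT, of the 9 tested factors (points) with its 95% interval from limma (lines) and the range below the fold change threshold of 0.5 in grey. Every interval crosses 0, and those of Gata4, Tbx20, Mef2a and Mef2d lie wholly within the grey range.

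The precision of these comparisons differed among the members. For 4 of them, Gata4, Tbx20, Mef2a and Mef2d, the 95% interval lay within 0.5 in either direction, which is a fold of 1.41. For the other 5, Gata6, Nkx2-5, Tbx5, Hand2 and Mef2c, the interval reached past it, so a difference of that size lies within what these libraries allow. Among all genes tested, 47.7% had an interval within the threshold. The direction turned in 7 of the 9 when 1 library was left out, and kept its sign, positive, only in Gata6 and Mef2a.

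The make-up of the MEF2 transcripts was compared as well, and for each share the WT and Crlf2-/- libraries overlapped. The smallest p that the exact permutation test allows for 3 against 3 libraries is 0.1. Even groups fully apart could not have passed the p threshold used for genes, so these tests cannot decide whether the shares differ. Mef2d made up 46.1% ± 2.82 of the summed FPKM of the family in WT and 44.1% ± 3.35 in Crlf2-/- libraries (exact permutation test, p = 0.4). Mef2a made up 36.6% ± 1.052 and 38.1% ± 2.87 (p = 0.5), and Mef2c 17.2% ± 2.36 and 17.6% ± 2.06 (p = 0.7, both exact permutation tests). Mef2b, the remaining family member, had too few fragments to be tested and was at no more than 0.161 FPKM. Over the 5 family shares compared, those of Gata4 and Tbx5 included, the Benjamini-Hochberg adjusted exact p was 0.8 for each.

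**Figure D3:**
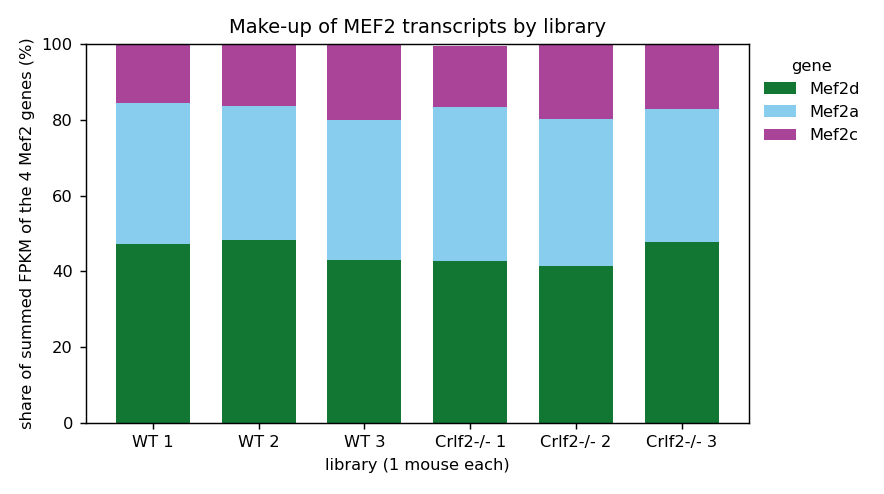
Share of Mef2d, Mef2a and Mef2c in the summed FPKM of the 4 Mef2 genes, in percent, for each library; the small gap below 100% is Mef2b. Mef2d took between 41.5% and 48.2% in every library, Mef2a between 34.98% and 40.7%, and Mef2c between 15.4% and 19.9%.

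RefSeq promoters on GRCm38.p6, from 250 bases before to 50 bases after an annotated start, were at hand for 6 members (8 entries); Gata4, Gata6, Tbx5 and Hand1 are named only. They were searched on both strands for short motifs bound by the families of the members: AGATAA for GATA proteins, TNAAGTG for the homeodomain protein NKX2-5, AGGTGT for T-box proteins, CANNTG (the E-box) for HAND and many other proteins, and for MEF2 proteins the letters CTA followed by any 4 bases and TAG. Of 32851 mouse promoters of the same length, 11.2% held the GATA letters, 11.5% the NKX2-5 letters, 13.7% the T-box letters, 72.3% an E-box and 3.69% the MEF2 letters. Shown are the promoter of Hand2 (chr8:57320733-57321032, plus strand), which holds a GATA match at position -172 from the start and E-boxes at -246 and -235 (not capitalised), the promoter of Mef2a (chr7:67372809-67373108, minus strand), which holds a match to the motif of its own family at -2, and for contrast that of Tbx20 (chr9:24774254-24774553, minus strand), the gene with the highest level, which holds no match to any of the 5 motifs. Each is read 5′ to 3′ on the strand of its gene, with the GATA or MEF2 match in capitals; the match in Hand2 lies on the other strand and appears as its reverse complement. Of the other entries, 1 of the promoters of Mef2c held a T-box match, at -216, the other Mef2c entries and Nkx2-5 held E-boxes alone, and Mef2d held no match. A match is a description of letters, not evidence of binding, and the levels of Hand2, Mef2a and Tbx20 did not pass the test between genotypes.
Hand2: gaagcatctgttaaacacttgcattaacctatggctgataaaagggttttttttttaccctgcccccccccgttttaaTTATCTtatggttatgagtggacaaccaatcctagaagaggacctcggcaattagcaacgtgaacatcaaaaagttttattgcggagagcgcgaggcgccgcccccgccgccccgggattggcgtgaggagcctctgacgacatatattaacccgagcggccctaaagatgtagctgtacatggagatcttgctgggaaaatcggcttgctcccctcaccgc
Mef2a: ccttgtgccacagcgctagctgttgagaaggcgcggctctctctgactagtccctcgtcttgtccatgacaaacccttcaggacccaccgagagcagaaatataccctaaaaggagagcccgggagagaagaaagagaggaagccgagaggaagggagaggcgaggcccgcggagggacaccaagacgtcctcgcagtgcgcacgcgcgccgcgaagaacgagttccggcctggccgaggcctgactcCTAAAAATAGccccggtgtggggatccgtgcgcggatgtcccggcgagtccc
Tbx20: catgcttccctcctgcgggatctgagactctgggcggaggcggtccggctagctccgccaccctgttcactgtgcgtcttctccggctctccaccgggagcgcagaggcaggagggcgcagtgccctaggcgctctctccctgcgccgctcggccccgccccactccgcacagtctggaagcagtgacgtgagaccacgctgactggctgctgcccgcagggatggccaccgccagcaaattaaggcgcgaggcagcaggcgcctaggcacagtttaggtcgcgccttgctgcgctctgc

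Ordered by mean FPKM over the 6 libraries, the members ran Tbx20, Mef2d, Gata4, Mef2a, Gata6, Nkx2-5, Mef2c, Hand2 and Tbx5. Tbx20 lay above Mef2d in 6 of 6 libraries, by a mean ratio of 1.44. From Mef2d to Nkx2-5, each gene lay above the next in only 4 or 5 of 6 libraries. Only neighbours in this order were compared here, and genes further apart could be separated: Mef2d lay above Nkx2-5 in every library. Nkx2-5 lay above Mef2c in 6 of 6 libraries, by a mean ratio of 1.602, while Mef2c and Hand2 exchanged places, with Mef2c higher in 3 of 6. The widest step was from Hand2 to Tbx5, 6.798-fold and in the same direction in 6 of 6 libraries. Among the 1469 genes that the table's own column lists as transcription factors, Tbx20 ranked 57th by mean FPKM, Mef2d 102nd, Gata4 120th and Tbx5 827th.

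The members differed in how much they varied between libraries. Tbx5 ranged over 1.23 on the log2 scale, Nkx2-5 over 1.15 and Hand2 over 1.03, whereas the other 6 stayed within 0.72. WT library 1 was the lowest of the 6 libraries for 4 members, Gata6, Tbx5, Mef2c and Mef2d. Averaged over the 9 members, the centred log2 level was -0.27, 0.11 and 0.15 in WT and -0.11, -0.01 and 0.13 in Crlf2-/- libraries. The low library of each group was thus its first, and the groups overlapped.

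The 5 genes whose pattern over the 6 libraries was most like this average, by root mean square difference of centred log2 levels among 10186 genes compared, were Gm13436 (0.020), Gm42732 (0.033), Fgfr2 (0.046), Fbln5 (0.048) and Otud7b (0.049). Their resemblance is a description over 6 libraries.

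**Figure D4:**
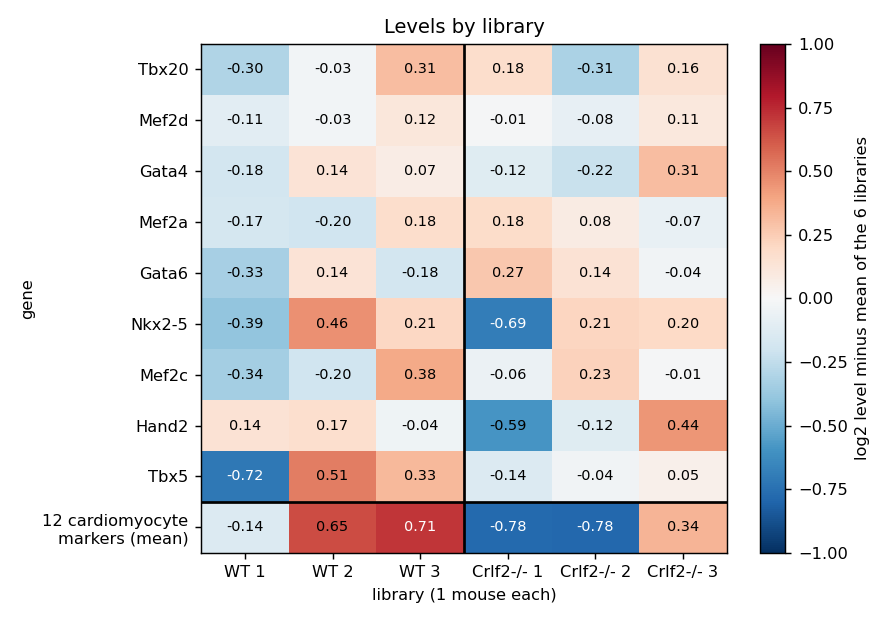
Log2 level of each factor in each library minus its mean over the 6 libraries (colour and number), with the mean of 12 cardiomyocyte markers in the bottom row. The columns of the 3 WT and 3 Crlf2-/- libraries show no common shift of the factors, while the marker row is lowest in Crlf2-/- libraries 1 and 2, at -0.78 each.

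Genes that act with these factors were followed in a list of 23 partners: related cardiac factors, cofactors and histone modifiers. Of these, 20 were tested and 0 were called by limma. At an unadjusted p under 0.05, 1 was higher and 2 were lower in Crlf2-/- libraries, against 6.58% of all genes in either direction. The median log2 fold change of the partners was 0.01. The voom fit also called 0. Without Crlf2-/- library 2, limma called 0 partners, and 1 was higher and 1 lower at an unadjusted p under 0.05. Over all 15520 genes, 842 had such a p without this library. The partners with the smallest p were Hopx, Hdac9, Hey2 and Hdac7.

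Hopx, a homeodomain-only protein that restrains SRF, was at 4.24, 3.29 and 3.86 FPKM in WT libraries and at 2.60, 2.87 and 3.02 FPKM in Crlf2-/- libraries (log2 fold change -0.41 ± 0.14 SE, unadjusted p = 0.0173, adjusted p = 0.557 by limma). Hdac9, a class IIa histone deacetylase that represses MEF2 proteins, was at 0.632, 0.543 and 0.595 FPKM in WT and at 0.819, 0.885 and 1.04 FPKM in Crlf2-/- libraries (log2 fold change 0.55 ± 0.19 SE, unadjusted p = 0.0183, adjusted p = 0.565). In both genes the libraries of the groups did not overlap, as in 11.7% of all genes tested. Hey2, a repressor of atrial genes in the ventricle, was at 1.51, 1.36 and 1.89 FPKM in WT and at 1.046, 0.939 and 1.21 FPKM in Crlf2-/- libraries (log2 fold change -0.53 ± 0.18 SE, unadjusted p = 0.0204, adjusted p = 0.598), again without overlap. Hdac7, another class IIa deacetylase, had a log2 fold change of -0.23 ± 0.13 (SE, unadjusted p = 0.109, adjusted p = 0.857). None of the 4 passed the test over all genes. Among the other tested partners, the groups did not overlap in Zfpm2 and Tbx18 alone, each higher in Crlf2-/- libraries. Their log2 fold changes were 0.21 and 0.15 (adjusted p = 0.916 and 0.929 by limma).

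Among genes known as targets of the factors in heart muscle, most had negative log2 fold changes, and none passed the test. Of 22 targets, all tested, 0 were called by limma, and 0 by voom. An unadjusted p under 0.05 was found in 4, all lower, against 6.58% of all genes in either direction. Without Crlf2-/- library 2, limma gave such a p to 2 targets, with 0 of them higher, and called 0. Beside an all-gene median of -0.0042, the log2 fold change was negative in 21 of 22 targets, with a median of -0.46. Leaving out 1 library moved this median between -0.73 (without Crlf2-/- library 3) and -0.24 (without Crlf2-/- library 1). Most targets are cardiomyocyte genes and are not independent of each other. The 4 were Myl2, Tnnc1, Tnni3 and Mb, and 6 of the 22 targets are also on the cardiomyocyte marker list.

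Myl2, the ventricular regulatory myosin light chain, was at 81.8, 118.8 and 116.6 FPKM in WT libraries and at 28.8, 30.4 and 78.8 FPKM in Crlf2-/- libraries (log2 fold change -1.35 ± 0.37 SE, unadjusted p = 0.0066, adjusted p = 0.391 by limma). Every WT library lay above every Crlf2-/- library, although Crlf2-/- library 3 came close to WT library 1. Tnnc1, Tnni3 and Mb, encoding cardiac troponin C, cardiac troponin I and the oxygen-binding protein myoglobin, had log2 fold changes of -0.93 ± 0.30, -1.34 ± 0.47 and -1.04 ± 0.39 (SE), with adjusted p of 0.518, 0.619 and 0.652. In these 3 genes the groups overlapped, since Crlf2-/- library 3 lay above WT library 1. The natriuretic peptide genes, direct targets of GATA4 and induced by wall stress, were at 326 ± 78.3 FPKM in WT and 229 ± 94.3 FPKM in Crlf2-/- libraries for Nppa and at 143 ± 28.6 and 111 ± 57.4 FPKM for Nppb (SD, n = 3 each, adjusted p = 0.846 and 0.924).

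**Figure D5:**
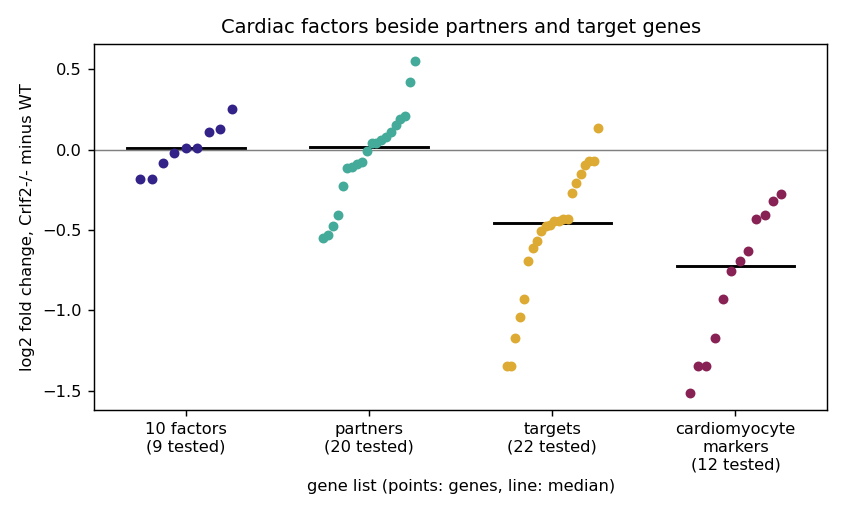
Log2 fold change, Crlf2-/- minus WT, of each tested gene among the cardiac factors, their partners, their targets and the cardiomyocyte markers (points), with the median of each list (black line). The medians were 0.01 for the factors and for the partners, -0.46 for the targets and -0.72 for the cardiomyocyte markers; no gene in any of the lists passed the test.

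The cardiomyocyte markers, 6 of which are also targets, were followed as a list of 12. All 12 had a negative log2 fold change, with a median of -0.72. An unadjusted p under 0.05 was found in 5, against 6.58% of all genes, and 0 were called. Their summed level was 1185, 2216 and 1980 FPKM in WT and 890.9, 773.9 and 1542 FPKM in Crlf2-/- libraries. The mean log2 level of the list was 5.60 ± 0.475 in WT and 4.78 ± 0.645 in Crlf2-/- libraries, a difference of -0.82 (exact permutation test, two-sided, p = 0.2). Without Crlf2-/- library 2, the difference was -0.63, and the medians were -0.51 for the markers and -0.38 for the targets. At an unadjusted p under 0.05 by limma, 2 markers were then lower and 0 higher, and 0 were called. The share of infarct and surrounding muscle in each sample is not given in the sources used here.

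Each factor was also expressed relative to the markers of its own library, as log2 FPKM minus the mean log2 FPKM of the 12 markers. The difference, Crlf2-/- minus WT, was positive for 9 of 9 factors, from 0.63 for Nkx2-5 to 1.07 for Gata6, with a median of 0.83. Without Crlf2-/- library 2 the median was 0.69 and the difference for Nkx2-5 was 0.295. The same measure had a median of 0.81 over all genes tested, which share this denominator with the factors. Gata4 was at -1.74, -2.21 and -2.34 in WT and at -1.04, -1.13 and -1.72 in Crlf2-/- libraries on this scale, without overlap. Nkx2-5 was at -2.52, -2.46 and -2.78 in WT and at -2.18, -1.27 and -2.41 in Crlf2-/- libraries, also without overlap. For both, the exact permutation p was 0.1, the smallest that this design allows, and 0.257 after Benjamini-Hochberg adjustment over the 9 factors. Groups apart with Crlf2-/- above WT occurred in 9.59% of all genes on this scale.

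Markers of the other cell types of the heart were followed beside the factors. The 8 fibroblast markers had a median log2 fold change of -0.05, the 8 endothelial markers -0.09, the 8 macrophage markers 0.11, the 5 smooth muscle markers 0.34 and the 5 epicardial and mesothelial markers 0.37, with 0 genes called in each. The 4 B cell markers had a median of -0.04. The 5 T cell markers and the 5 red blood cell markers had medians of -1.18 and -1.29. In each list 5 of 5 genes, all lower in Crlf2-/- libraries, had an unadjusted p under 0.05, against 6.58% of all genes, and 0 were called. The part of cell make-up in the levels of the factors was not tested.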

How the data were processed

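Hearts were sampled on day 7 post-MI, 3 libraries for WT and 3 for Crlf2-/- mice. The authors trimmed reads with fastp, aligned them with HISAT2 2.0.5, counted fragments with featureCounts and deposited an FPKM value for every gene in each library, with gene lengths. The submitters' notes name mm10 and a human build without saying which was used for what; mouse gene identifiers and mm10 positions matched the annotation (start and end the same as in GENCODE for 8 of the 10 members). The authors tested counts with DESeq2. The file holds FPKM, so the test was run on the log scale instead.

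FPKM multiplied by gene length and by a depth worked out for each library gave whole fragments for 100% of values (tolerance 0.05). FPKM were scaled by trimmed mean of M values from these fragments, and genes were kept if 3 or more libraries held 10 or more fragments and the total reached 15 (15520 genes). log2(FPKM + 0.1) values were fitted with limma 3.58.1 (R 4.3.3, robust, with a mean-variance trend), with Benjamini-Hochberg adjustment over all genes kept; this scale understates the change of low genes. Thresholds were an adjusted p of 0.05 and an absolute log2 fold change of 0.5, as in the study's methods. Shares and relative levels were compared by exact permutation over libraries. Scripts were tested on simulated data.

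The members and lists were chosen with earlier results of these data known. Named genes were the members, Crlf2, called genes or else the 4 smallest p in the partner and target lists, the 5 most alike genes and overlapping genes. Nppa and Nppb, the partners Zfpm2 and Tbx18, and the single markers of other cells, were named after their values were seen. Alternatives were other pseudocounts, FPKM as deposited, median-of-ratios size factors, no filter or a stricter one, voom, a replicate block, leaving out each library and summed markers. A result that needs a withheld item is not reported here.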

Additional observations from a re-analysis of the deposited data

How the results depend on the processing

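Across the alternatives, 0 members, 0 partners and 0 targets were called in any setting. Of 402 recomputed values, 18 of single factors or shares turned sign, each on leaving out a library. On leaving out 1 library at a time, the median log2 fold change ran from -0.11 to 0.075 for the members, -0.11 to 0.05 for the partners and -0.73 to -0.24 for the targets. In the same way the log2 fold change ran from -0.18 to 0.086 for Gata4, -0.43 to 0.11 for Nkx2-5, -0.46 to 0.15 for Tbx5, -0.13 to 0.17 for Tbx20, -0.45 to 0.071 for Hand2, -0.034 to 0.326 for Mef2c and -0.039 to 0.075 for Mef2d; the cause was not tested. The difference in share ran from -1.04 to 0.41 percentage points for Tbx5 and from -0.77 to 1.71 for Mef2c, and kept its sign for Gata4 (-8.92 to -2.52), Mef2a (0.17 to 3.01) and Mef2d (-3.91 to -0.74). Gata6 had an unadjusted p of 0.0305 without WT library 2 (adjusted p = 0.998 by limma).

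Over all genes, limma called 2 (1 higher, 1 lower), 6 with no filter (2 higher, 4 lower), 1 with the stricter filter (0 lower; the unadjusted p was under 0.05 in 922 genes) and 4 with the replicate block (3 lower); voom called 2 lower. Leaving out 1 library gave 1 to 14 genes called, 1 to 5 higher and 0 to 10 lower (674 to 1156 had an unadjusted p under 0.05); the highest counts were 14 without Crlf2-/- library 1 and 8 without WT library 3. For libraries sharing a replicate number, deviations from the group means had correlations of -0.016, 0.115 and 0.12. These numbers were treated as names only, not as pairs, and the replicate block called 0 members, with a median log2 fold change of 0.01. Hand1 was left untested, at 0 fragments, and Tbx5 had 38 to 99 fragments per library.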

Other observations

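Relatives of the cardiac factors were named after their values were seen. Gata2, an endothelial and blood cell factor, was at a mean of 1.00 FPKM and Gata5 at 0.461 FPKM, both far below Gata4 and Gata6. Tbx18, a factor of epicardial and mural cells, was at 7.28, 7.45 and 6.86 FPKM in WT libraries and at 8.83, 7.57 and 7.67 FPKM in Crlf2-/- libraries, above Tbx5 in every library (log2 fold change 0.15, unadjusted p = 0.187 by limma). Tbx15 was at 1.69 FPKM in Crlf2-/- library 2, the library with skeletal muscle transcripts, and at no more than 0.134 FPKM in the others. Tbx21, the T-box factor of type 1 helper T cells and natural killer cells, had a log2 fold change of -0.94 (unadjusted p = 0.0213 by limma), not passing over all genes.

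Of the 1469 genes listed as transcription factors, 759 had a mean of at least 1 FPKM and 1008 were tested; limma called 0, and 62 (6.15%) had an unadjusted p under 0.05. The median log2 fold change of the tested ones was 0.01. By family, 0 of 12 tested GATA zinc finger genes, 0 of 11 T-box genes, 0 of 5 MADS-box genes, 0 of 58 basic helix-loop-helix genes and 0 of 66 homeobox genes were called. Mitochondrial transcripts made up 3.13%, 3.42% and 4.07% of the WT libraries and 3.001%, 2.79% and 2.99% of the Crlf2-/- libraries.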
